A study of Saccharomyces cerevisiae with 12 samples.

Results

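TIS11 (YLR136C, also called CTH2) and CTH1 (YDR151C) encode the 2 budding yeast members of the tristetraprolin family of tandem zinc finger proteins. They were found by their standard names among 6660 genes in each of 3 deposited tables of FPKM (fragments per kilobase of transcript, scaled to the mapped fragments), and both have a value above 0 in all 12 libraries. All libraries were made from the Saccharomyces cerevisiae laboratory strain background BY4741. The groups with a changed gene were mmm1Δ (2 libraries) and, with 1 library each, mdm34Δ, sam37Δ, AFT1-C291F, VPS13-D716H mmm1Δ, VPS13-D716H sam37Δ and VPS13-D716H. The remaining groups were wild type (WT) in clean YPD with 100 µM of the iron chelator bathophenanthroline disulfonate (BPS) for 4 hours, WT in clean YPD without it, and WT in the rich medium YPD (2 libraries). MMM1 and MDM34 encode subunits of ERMES, the tether between the endoplasmic reticulum and mitochondria. SAM37 encodes a subunit of the machinery that inserts proteins into the mitochondrial outer membrane. VPS13-D716H is an allele of a lipid transfer protein, and AFT1-C291F, which the label also calls Aft1-1up, is an allele of the iron regulator Aft1 known for being active whatever the iron supply. The series title names the question, whether the junction of endoplasmic reticulum and mitochondria is needed for iron homeostasis. The labels do not say whether a deletion or allele was studied in more than 1 clone, or whether replicates were separate cultures.

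When yeast runs short of iron, Aft1 and Aft2 switch on the genes of iron uptake, and TIS11 with them. The Tis11 protein binds AU-rich elements in the 3′ untranslated regions of messages for iron-using proteins, such as respiratory chain and iron-sulfur enzymes, and recruits the decay machinery, so that iron is spared. Cth1 binds the same kind of element and is known to act early in iron shortage. Tis11 is also known to limit its own message and that of CTH1 through such elements.

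The sequences at both loci show the letters through which the proteins are known to act and those that Aft1 is known to bind. TIS11 lies on chromosome XII at 415801 to 416658 (build sacCer3, minus strand, coding length 858 nt). CTH1 lies on chromosome IV at 764178 to 765155 (minus strand, coding length 978 nt). The core AU-rich motif searched for was TATTTATT on the coding strand, overlapping copies included, within 300 nt after the stop codon. TIS11 has 1 copy, which starts 47 nt after its stop codon, and CTH1 has 4, of which the first starts at 54 nt. Of 5985 nuclear coding genes matched to the reference, 464 (7.75%) have at least 1 copy there, and 9 (0.150%) have at least as many as CTH1. The windows below run 5′ to 3′ on the coding strand, with the motif in capitals. The windows of CYC1, SDH2 and LEU1 are shown because the results on target messages turn on these genes.
TIS11, chrXII:415734-415763, minus strand: aaactcaatTATTTATTatttttttctcca
CTH1, chrIV:764104-764133, minus strand: gcctctcctTATTTATTTATTcattatcgt
CTH1, chrIV:764078-764107, minus strand: tcgttttcaTATTTATTtcagtcacaaaac
CTH1, chrIV:763998-764027, minus strand: tttttagttTATTTATTtcattaggtagaa
CYC1, chrX:526778-526807, plus strand: ctaggtcccTATTTATTttttttaatagtt
SDH2, chrXII:52948-52977, minus strand: tatgactatTATTTATTtatcattggcaat
LEU1, chrVII:476169-476198, minus strand: ctcactaatTATTTATTTATTtgactataa

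Upstream, the search was for the core of the Aft1 site, TGCACCC, on both strands, within 300 nt before the start codon. The same core without its first base, GCACCC, was also searched for, and so was its end alone, CACCC, so the shorter motifs also match inside the longer ones. TIS11 has 2 copies of TGCACCC, at 249 nt before the start codon on the coding strand and at 173 nt on the other strand, and a further CACCC at 216 nt. CTH1 has no TGCACCC in this window, 1 GCACCC at 285 nt and a further CACCC at 92 nt. The full core occurred in this window in 1.32% of the 5985 genes, and 8 genes (0.134%) have 2 or more copies of it. The form GCACCC occurred in 4.06% of genes. The form CACCC occurred in 19.6% of genes. A match is a description of the letters and not of a bound site. The 100-nt stretches that hold the copies farthest upstream are given 5′ to 3′ on the coding strand, with each match, on either strand, in capitals.
TIS11, chrXII:416819-416918, minus strand: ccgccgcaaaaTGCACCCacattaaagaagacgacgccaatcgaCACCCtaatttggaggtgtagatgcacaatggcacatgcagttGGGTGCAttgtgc
CTH1, chrIV:765376-765475, minus strand: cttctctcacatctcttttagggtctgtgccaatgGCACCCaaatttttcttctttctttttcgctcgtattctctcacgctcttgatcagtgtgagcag

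The deleted genes checked the labels: MMM1, MDM34 and SAM37 were listed at 0 in every library labelled as their deletion, and none was at 0 in another library. A level does not check a point allele. The 3 tables were taken as normalized separately, since median FPKM ran from 12.3 to 52.2 over the libraries, so levels are compared within a table. The first table holds mmm1Δ replicate 1, mdm34Δ and WT replicate 1, the second the other libraries in YPD, and the third the pair in clean YPD. FPKM carries no read counts, so depth is unknown and no counting error can be given. Markers of a cells, the mating type of BY4741 (6 of 6 measured, none at 0), summed to 13733 to 112913 FPKM, and those of α cells (4) to 17.0 to 65.3. Genes for cytosolic ribosomal proteins held 27.0 to 54.9% of the length-weighted FPKM.

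TIS11 was high in every library with a deletion of MMM1, MDM34 or SAM37 or with AFT1-C291F, and with BPS, though far less so where VPS13-D716H was combined with mmm1Δ. In the first table its level was 147 FPKM in mmm1Δ replicate 1 and 164 FPKM in mdm34Δ, against 11.3 FPKM in WT replicate 1. In the second table it was 365 FPKM in AFT1-C291F, 243 FPKM in mmm1Δ replicate 2, 232 FPKM in sam37Δ, 186 FPKM in VPS13-D716H sam37Δ, 34.5 FPKM in VPS13-D716H mmm1Δ and 10.8 FPKM in VPS13-D716H, against 7.73 FPKM in WT replicate 2. In the third table it was 614 FPKM with BPS, against 20.9 FPKM in WT in clean YPD. The highest level in the series was thus in the chelated culture and the lowest in WT replicate 2, across tables whose scales differ. In bulk RNA, fewer cells with the message and less message per cell cannot be told apart, nor can its making and its decay.

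CTH1 ran within a much narrower range in each table. In the first table it was 13.9 FPKM in mmm1Δ replicate 1 and 13.5 FPKM in mdm34Δ, against 15.1 FPKM in WT replicate 1. In the second it was 91.0 FPKM in VPS13-D716H mmm1Δ, 77.7 FPKM in VPS13-D716H, 61.4 FPKM in VPS13-D716H sam37Δ, 60.2 FPKM in sam37Δ, 50.1 FPKM in mmm1Δ replicate 2 and 39.8 FPKM in AFT1-C291F, against 84.1 FPKM in WT replicate 2. In the third it was 47.7 FPKM with BPS, against 75.8 FPKM in WT in clean YPD. All libraries but VPS13-D716H mmm1Δ were thus below the WT library of their table.

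**Figure D1:**
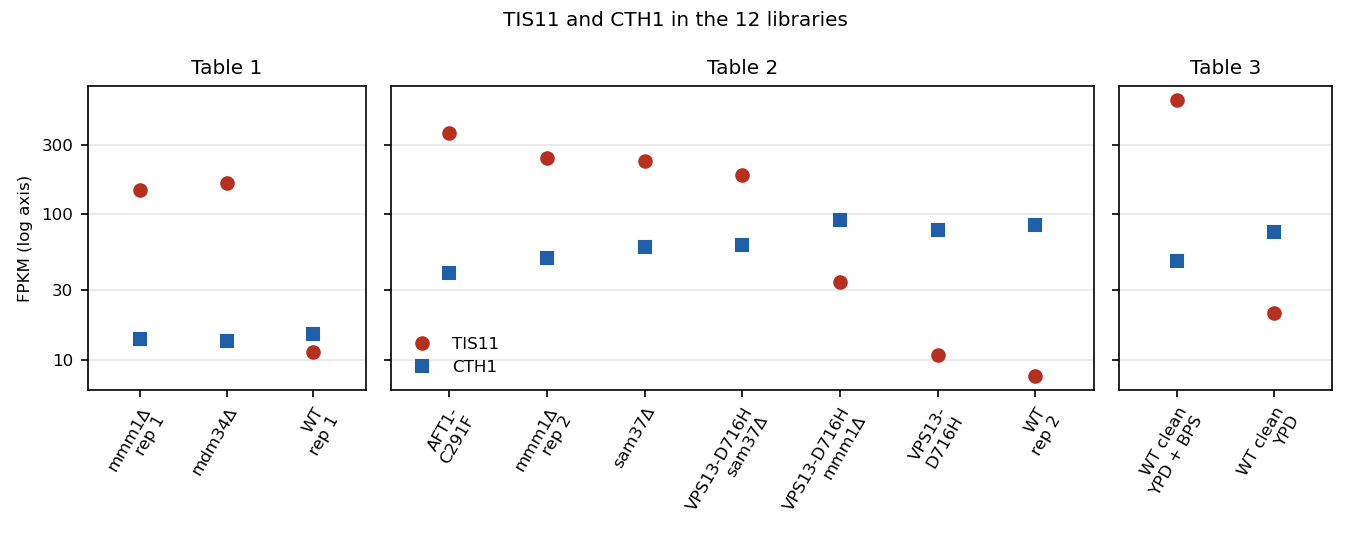
FPKM of TIS11 (circles) and CTH1 (squares) in each of the 12 libraries, on a log axis, 1 point per library, with the 3 tables in separate panels and the control at the right of each. TIS11 lies above CTH1 in 7 libraries and below it in 5: the 3 WT libraries without BPS, VPS13-D716H and VPS13-D716H mmm1Δ.

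As FPKM is per length, the level of one gene can be set against the other's within a library. TIS11 over CTH1 was 12.2 in mdm34Δ and 10.6 in mmm1Δ replicate 1, against 0.749 in WT replicate 1. It was 9.19 in AFT1-C291F, 4.86 in mmm1Δ replicate 2, 3.85 in sam37Δ and 3.03 in VPS13-D716H sam37Δ, against 0.0919 in WT replicate 2. With BPS it was 12.9, against 0.276 in WT in clean YPD. CTH1 was the more abundant message in all 3 WT libraries without BPS, and TIS11 in the deletions, in AFT1-C291F and with BPS. VPS13-D716H mmm1Δ, at 0.379, and VPS13-D716H, at 0.139, had more CTH1 than TIS11.

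Loss of MMM1 is the comparison with 2 pairs of libraries. Ratios are log2 of (FPKM + 1) in one library over another of its table, a scale that understates the change of low genes. The mmm1Δ libraries exceeded their WT libraries in TIS11 by 3.59 and 4.81, with a mean of 4.20 ± 0.86 (SD, n = 2 pairs). TIS11 rose in limma, fitted over 6029 genes with the pair as a block (moderated SE 0.38, adjusted p = 0.000426, Benjamini-Hochberg). It had the 30th highest ratio of the genes tested, of which 2.74% rose and 1.01% fell. The call was lost in limma with no block (adjusted p = 0.158) and with no filter on low values (adjusted p = 0.0906). For CTH1 the ratios were -0.12 and -0.74, with a mean of -0.43 ± 0.44 (SD, n = 2 pairs). This did not pass the test (moderated SE 0.32, adjusted p = 0.536, limma), and its sign turned to 0.15 when FPKM was rescaled without ribosomal protein genes.

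In single pairs of libraries, which have no replicate check, a gene past 2-fold is called higher or lower. TIS11 was higher in mmm1Δ replicate 1 (8.28% of all genes higher) and in mmm1Δ replicate 2 (8.57% higher). The ratio was 3.74 in mdm34Δ (11.8% of all genes higher), 4.74 in sam37Δ (6.32% higher) and 5.39 in AFT1-C291F (15.6% higher). With BPS it was 4.81 (3.18% of all genes higher). TIS11 stood 64th from the highest of 5136 genes in mdm34Δ, 16th of 6198 in sam37Δ, 19th of 6174 in AFT1-C291F and 22nd of 6262 with BPS. CTH1 was lower only in AFT1-C291F, at -1.06 (14.2% of all genes lower). Its ratio was -0.48 in sam37Δ and -0.66 with BPS, short of 2-fold, and with BPS it stood 483rd from the lowest of 6262 genes.

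**Figure D2:**
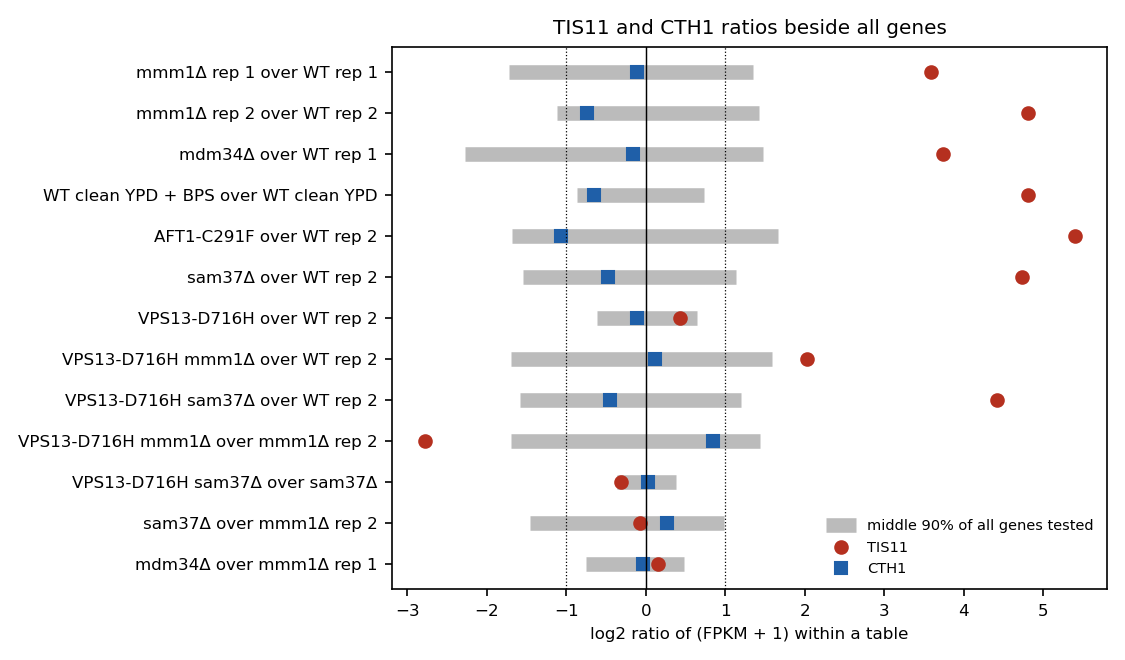
Log2 ratios of (FPKM + 1) for TIS11 (circles) and CTH1 (squares) in 13 comparisons within a table, each named as one library over another. Grey bars span the middle 90% of all genes tested and dotted lines mark 2-fold; TIS11 lies beyond the bar at the high end in 8 comparisons and at the low end in VPS13-D716H mmm1Δ over mmm1Δ replicate 2, where CTH1 stood at 0.85.

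The VPS13-D716H allele differed in its ratio by background. Over WT replicate 2, VPS13-D716H alone gave TIS11 a ratio of 0.43, not past 2-fold (2.21% of all genes higher and 2.09% lower), and CTH1 a ratio of -0.11. In mmm1Δ, TIS11 was lower by 2-fold with the allele than without it: VPS13-D716H mmm1Δ over mmm1Δ replicate 2 gave -2.78, the 87th lowest of 6245 ratios (9.43% of all genes higher and 12% lower). TIS11 was still higher in VPS13-D716H mmm1Δ than in WT replicate 2, at 2.02 (11.7% of all genes higher). CTH1 was 0.85 in VPS13-D716H mmm1Δ over mmm1Δ replicate 2, short of 2-fold, and 0.11 over WT replicate 2. In sam37Δ, neither gene passed 2-fold with the allele: VPS13-D716H sam37Δ over sam37Δ gave -0.32 for TIS11 and 0.03 for CTH1. VPS13-D716H sam37Δ over WT replicate 2 gave 4.42 for TIS11 (6.81% of all genes higher) and -0.45 for CTH1. With 1 library per group these differences between backgrounds were not tested.

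Ordered by TIS11, the second table ran from AFT1-C291F through mmm1Δ replicate 2, sam37Δ and VPS13-D716H sam37Δ to VPS13-D716H mmm1Δ, VPS13-D716H and WT replicate 2. The gaps among the first 4 were 0.59, 0.07 and 0.32 on the log2 scale. They were within the SD of 0.86 of the mmm1Δ pairs, the only replicate spread there is. That SD is of 2 ratios from different tables, so it is a rough yardstick and no test of gaps between single libraries. The gap from VPS13-D716H sam37Δ to VPS13-D716H mmm1Δ, at 2.40, and from there to VPS13-D716H, at 1.59, exceeded that SD. That from VPS13-D716H to WT replicate 2, at 0.43, did not. For CTH1, no gap between neighbours exceeded the SD of 0.44 of its pairs. Both ERMES deletions stood close together: mdm34Δ over mmm1Δ replicate 1 was 0.15 for TIS11 and -0.04 for CTH1. sam37Δ over mmm1Δ replicate 2 was -0.07 for TIS11 and 0.26 for CTH1.

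Other measures differed between the libraries too, though the share of ribosomal protein genes did not follow TIS11 in all of them. In the YPD libraries where TIS11 exceeded 100 FPKM, the 6 a cell markers summed to 13733 to 49757 FPKM, against 89228 to 112913 FPKM in VPS13-D716H mmm1Δ, VPS13-D716H and the 2 WT libraries. With BPS they summed to 52015 FPKM, against 67491 FPKM in WT in clean YPD. The share of ribosomal protein genes was 40.8% in mmm1Δ replicate 1 and 38.5% in mdm34Δ, against 54.9% in WT replicate 1. It was 27.0 to 35.3% in the second table's deletions and AFT1-C291F, 33.6% in VPS13-D716H mmm1Δ and 45.7% in VPS13-D716H, against 49.0% in WT replicate 2. With BPS it was 28.1%, against 27.7% in WT in clean YPD. The part of the a cell markers and of this share in the TIS11 result was not tested. Rescaled without ribosomal protein genes, TIS11 gave 4.57 and 4.96 in mmm1Δ, 5.22 in mdm34Δ and -3.13 in VPS13-D716H mmm1Δ over mmm1Δ replicate 2. CTH1 then gave 0.84 in mmm1Δ replicate 1, -0.55 in mmm1Δ replicate 2, 1.28 in mdm34Δ and -0.05 in VPS13-D716H mmm1Δ over WT replicate 2. Such rescaling moved the median ratio of all genes to 1.01 in mmm1Δ replicate 1 and 1.52 in mdm34Δ, so against that median CTH1 was not higher.

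None of the genes next to the pair on the chromosome passed 2-fold in mmm1Δ, which for 4 genes is near the shares of all genes. Those shares were 8.28% higher and 15.8% lower in replicate 1, and 8.57% higher and 6.69% lower in replicate 2. RKM5, a ribosomal lysine methyltransferase gene, starts 347 nt from TIS11 on the opposite strand. It was 26.7 FPKM in mmm1Δ replicate 1 and 16.5 FPKM in mdm34Δ, against 46.0 FPKM in WT replicate 1, and 19.6 FPKM in mmm1Δ replicate 2, against 22.9 FPKM in WT replicate 2. SLX4, a scaffold of DNA repair nucleases, on the other side of TIS11, was 8.92 FPKM in mmm1Δ replicate 2, against 10.5 FPKM in WT replicate 2. GIR2, which starts 550 nt from CTH1 on the opposite strand, was 186 FPKM in mmm1Δ replicate 2, against 279 FPKM in WT replicate 2. NUM1, which encodes a cortical anchor of mitochondria, was 8.37 FPKM in mmm1Δ replicate 2, against 6.46 FPKM in WT replicate 2, and 29.6 FPKM in AFT1-C291F. Over the WT library of its table, RKM5 was thus lower by 2-fold in mdm34Δ (23.4% of all genes lower). NUM1 was higher in AFT1-C291F (15.6% of all genes higher). GIR2 was lower in VPS13-D716H mmm1Δ, at 138 FPKM (11.6% of all genes lower). All 4 neighbours lie on the strand opposite to the pair.

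The genes most like TIS11 across 9 ratios over the control of their table were all genes of metal uptake or handling. Of 3908 other genes that could be compared, the highest Pearson correlations were those of FIT2 (0.959), SIT1 (0.955), ENB1 (0.935), FIT3 (0.929), PCA1 (0.923) and FIT1 (0.916). The FIT genes encode cell wall mannoproteins that retain siderophores, iron chelates that SIT1 and ENB1 import, and PCA1 encodes a metal transporting ATPase. FIT2 had ratios of 5.04 and 7.45 in mmm1Δ, 7.12 with BPS, 7.52 in AFT1-C291F and 0.38 in VPS13-D716H. The lowest were RHB1 (-0.834), ADH4 (-0.832), RIP1 (-0.823), BIO2 (-0.820), RHO4 (-0.817) and CYC1 (-0.815). RIP1, the Rieske iron-sulfur protein, BIO2, the iron-sulfur enzyme of biotin synthesis, and CYC1, cytochrome c, are also on the list of Tis11 and Cth1 targets below. The 9 ratios are no independent points, since 6 share WT replicate 2 and 2 share WT replicate 1, so no p is given.

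CTH1 was among the genes least like TIS11, with a correlation of -0.779 (Spearman -0.967), the 10th lowest of 3908. Without the first table it was -0.838 over 7 ratios, the 28th lowest. The genes most like CTH1 were IME4 (0.931), AVO2 (0.895), YER187W (0.887), YPR195C (0.885), CYT1 (0.885) and RHB1 (0.884). IME4 encodes an RNA methyltransferase of meiosis, AVO2 a component of the TOR complex and CYT1 cytochrome c1. These correlations rest on small CTH1 ratios, of which 1 of 9 was past 2-fold.

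The Aft1/Aft2 iron regulon, listed without TIS11 (29 genes), was set beside TIS11. In mmm1Δ, 17 of 28 members that passed the filter rose in limma and none fell (2.74% of all genes rose and 1.01% fell). At an unadjusted p under 0.05 in limma, 24 were higher and 0 lower. Of 5508 coding genes, 559 were higher and 425 lower at that p. The median of the 28 members was 1.81, beside 0.03 for all genes. With BPS, 27 of 29 were higher (3.18% of all genes higher), with a median of 2.20. In AFT1-C291F 24 of 28 were higher (15.6% of all genes), with a median of 2.43. In mdm34Δ 20 of 26 were higher (11.8% of all genes), in sam37Δ 22 of 29 (6.32%) and in VPS13-D716H sam37Δ 21 of 29 (6.81%), with medians of 1.99, 1.60 and 1.49. Over WT replicate 2, 8 of 27 were higher in VPS13-D716H mmm1Δ (11.7% of all genes) and 4 of 26 in VPS13-D716H alone (2.21%), with medians of 0.68 and 0.39. None was lower in any of these. In VPS13-D716H mmm1Δ over mmm1Δ replicate 2, 20 of 29 were lower and 1, HMX1, a heme oxygenase gene, was higher (12% of all genes lower and 9.43% higher), with a median of -1.52. Of the 29, 15 have TGCACCC within 300 nt upstream (1.32% of 5985 coding genes). As TIS11 has, 5 have 2 or more copies (0.134% of coding genes).

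The messages that the pair is known to act on were followed through a list of 22 iron-using or mitochondrial genes. The list was written from general knowledge with earlier results of these data known, so its direction is no independent evidence. Within 300 nt of the stop codon, 20 of the 22 (90.9%) have TATTTATT, all but COX4 and LIP2 (7.75% of 5985 coding genes). In mmm1Δ, 17 of 22 were lower and 0 higher at an unadjusted p under 0.05 in limma. Of 5508 coding genes, 425 were lower and 559 higher at that p. The median of the 22 targets was -1.48, beside 0.03 for all genes. By the limma calls, 8 of the 22 fell and none rose (1.01% of all genes fell and 2.74% rose). Those that fell were SDH1 and SDH2, subunits of succinate dehydrogenase, RIP1, CYC1, BIO2, COX4 and COX6, subunits of cytochrome c oxidase, and NDI1, the internal NADH dehydrogenase. Of these, COX4 has no motif, and SDH1 has 9 copies.

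With BPS, 21 of 22 listed targets were lower (3.91% of all genes lower), with a median of -2.11, and LIP2 was the exception at -0.30. In AFT1-C291F 17 were lower (14.2% of all genes lower), with a median of -1.95. In mdm34Δ 15 were lower (23.4% of all genes lower), with a median of -1.79. In mmm1Δ, 15 were lower in replicate 1 (15.8% of all genes lower) and 16 in replicate 2 (6.69% lower), where ACO1, aconitase, was higher at 1.22. In sam37Δ 12 were lower (10.7% of all genes lower), with a median of -1.22, and in VPS13-D716H sam37Δ 13 (10.9% lower). Rescaled without ribosomal protein genes, the counts were 2 in mmm1Δ replicate 1, 10 in mmm1Δ replicate 2 and 7 in mdm34Δ. Of all coding genes, 2.15, 3.21 and 2.76% were then lower, in the same order. The medians of the targets stayed below 0, at -0.42, -0.96 and -0.34, beside 1.01, 0.16 and 1.52 for all genes.

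**Figure D3:**
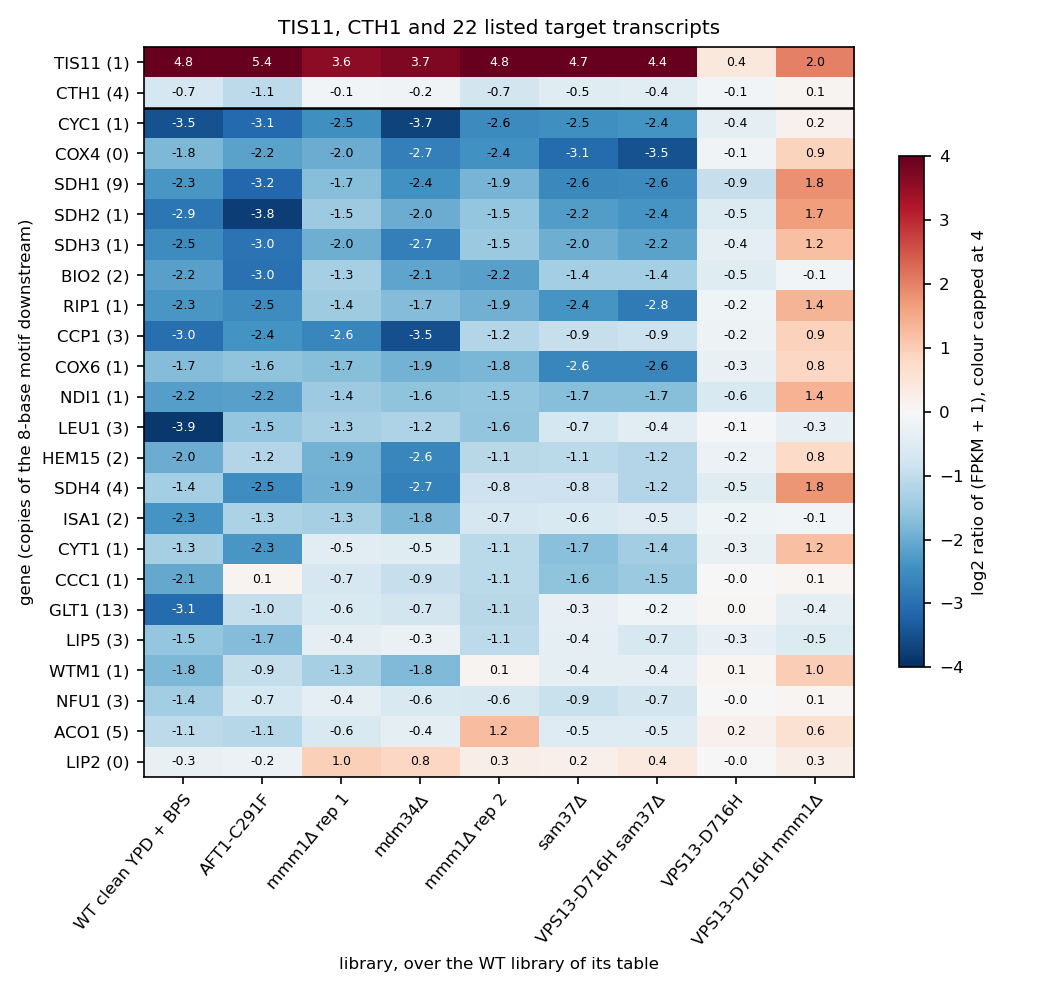
Log2 ratios of (FPKM + 1) for TIS11, CTH1 and the 22 listed targets in 9 libraries over the WT library of their table (BPS over WT in clean YPD), with the number of downstream motif copies after each name; red is higher, blue lower, and colour is capped at 4. Targets are sorted by their mean ratio. Between 12 and 21 targets were lower in the 7 columns where TIS11 exceeded 3.5, while in VPS13-D716H mmm1Δ TIS11 stood at 2.02 and 7 targets were higher.

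CYC1, with 1 motif, is given as an example. It was 83.3 FPKM in mmm1Δ replicate 1 and 34.4 FPKM in mdm34Δ, against 460 FPKM in WT replicate 1. CYC1 was 47.9 FPKM in AFT1-C291F, 71.5 FPKM in mmm1Δ replicate 2, 76.4 FPKM in sam37Δ, 80.3 FPKM in VPS13-D716H sam37Δ, 481 FPKM in VPS13-D716H mmm1Δ and 332 FPKM in VPS13-D716H, against 426 FPKM in WT replicate 2. With BPS, CYC1 was 13.1 FPKM, against 157 FPKM in WT in clean YPD. In the second table the 4 libraries with TIS11 above 100 FPKM were the 4 with the least CYC1. As CYC1 was among the 6 genes least like TIS11 in these data, this order is no separate evidence. Not every listed target shared it: ACO1 was 349 FPKM in mmm1Δ replicate 2, against 149 FPKM in WT replicate 2.

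In VPS13-D716H mmm1Δ, TIS11 was higher than in WT replicate 2 at 2.02, and 7 of 22 targets were higher and none lower (11.7% of all genes higher and 11.6% lower), with a median of 0.79. The 7 were SDH1, SDH2, SDH3 and SDH4 of succinate dehydrogenase, RIP1, CYT1 and NDI1, at 1.19 to 1.83, while LIP5 stood lowest at -0.54. SDH2 was 855 FPKM there and 92.0 FPKM in mmm1Δ replicate 2, against 268 FPKM in WT replicate 2. Over WT replicate 2, SDH1 stood at 1.83 in VPS13-D716H mmm1Δ and -1.87 in mmm1Δ replicate 2. Over mmm1Δ replicate 2, 15 of 22 targets were higher in VPS13-D716H mmm1Δ and none lower (9.43% of all genes higher), with a median of 2.07. In VPS13-D716H alone none of the 22 passed 2-fold in either direction, with a median of -0.22. That count is near the shares of all genes (2.21% higher and 2.09% lower).

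Libraries with nearly the same TIS11 ratio differed widely in some listed targets and less in others. TIS11 stood at 4.81 with BPS, 4.81 in mmm1Δ replicate 2 and 4.74 in sam37Δ. Its levels were 614, 243 and 232 FPKM, the first in a table of another scale. LEU1, the iron-sulfur isomerase of leucine synthesis, with 3 motifs, stood at -3.88 with BPS, -1.59 in mmm1Δ replicate 2 and -0.69 in sam37Δ. GLT1, glutamate synthase, with 13 motifs, stood at -3.09 with BPS, -1.12 in mmm1Δ replicate 2 and -0.32 in sam37Δ. LEU1 was 44.8 FPKM with BPS, against 671 FPKM in WT in clean YPD, and 229 FPKM in sam37Δ, against 371 FPKM in WT replicate 2. For COX4, with no motif, the order was the other way, at -1.79 with BPS, -2.41 in mmm1Δ replicate 2 and -3.09 in sam37Δ. SDH1 lay closer together, at -2.325 with BPS, -1.866 in mmm1Δ replicate 2 and -2.567 in sam37Δ. So did RIP1, at -2.315, -1.919 and -2.375 in the same order. These are single libraries with different controls, and the differences were not tested.

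The set of all genes with TATTTATT downstream is defined by sequence alone and holds 20 of the 22 listed targets. With BPS, 20.9% of 449 such genes were lower, beside 3.40% of all coding genes. The share was 13.4% in mmm1Δ replicate 2, beside 5.50% of all coding genes, and 22.5% in mmm1Δ replicate 1, beside 14.3%. It was 29.3% in mdm34Δ, beside 21.8%, 20.8% in AFT1-C291F, beside 12.8%, 15.3% in sam37Δ, beside 9.19%, and 16.3% in VPS13-D716H sam37Δ, beside 9.50%. In VPS13-D716H alone it was 2.04%, beside 1.46%. In VPS13-D716H mmm1Δ the share was below that of all coding genes, at 8.09% beside 11.1%, and over mmm1Δ replicate 2 it was 7.38% beside 11.7%. Rescaled without ribosomal protein genes, several shares were lower by more than 1.5 times. They were 4.91% in mmm1Δ replicate 1, beside 2.15% of all coding genes, 8.05% in mmm1Δ replicate 2, beside 3.21%, and 7.26% in mdm34Δ, beside 2.76%. In sam37Δ the rescaled share was 8.54%, beside 4.76%, and in VPS13-D716H sam37Δ 9.03%, beside 4.97%. With BPS it was 21.4%, beside 3.44%. In limma, 15 of 434 genes with the motif (3.46%) fell in mmm1Δ, beside 0.726% of 5508 coding genes.

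The share also varied with the number of copies. With BPS, 1.91% of 5284 genes with no copy were lower, 16.6% of 380 with 1 copy, 31.1% of 45 with 2 copies and 70.8% of 24 with 3 or more. In AFT1-C291F the shares were 12.1, 18.6, 22.7 and 52.2%, and in mmm1Δ replicate 2 they were 4.82, 11.6, 17.8 and 34.8%. In sam37Δ the last step was absent, with 8.67, 14.1, 24.4 and 17.4%. In VPS13-D716H mmm1Δ the share of higher genes was 10.7, 13.8, 20.5 and 16.7%. Leaving out the 22 listed targets, 17.2% of 429 genes with the motif were lower with BPS, and 56.2% of the 16 with 3 or more copies. Without them, of 15 genes with 3 or more copies, 6 were lower in AFT1-C291F, 3 in mmm1Δ replicate 2 and 3 in sam37Δ, and all these classes hold under 20 genes. In mmm1Δ replicate 1 and mdm34Δ the class with 3 or more copies held under 20 genes.

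**Figure D4:**
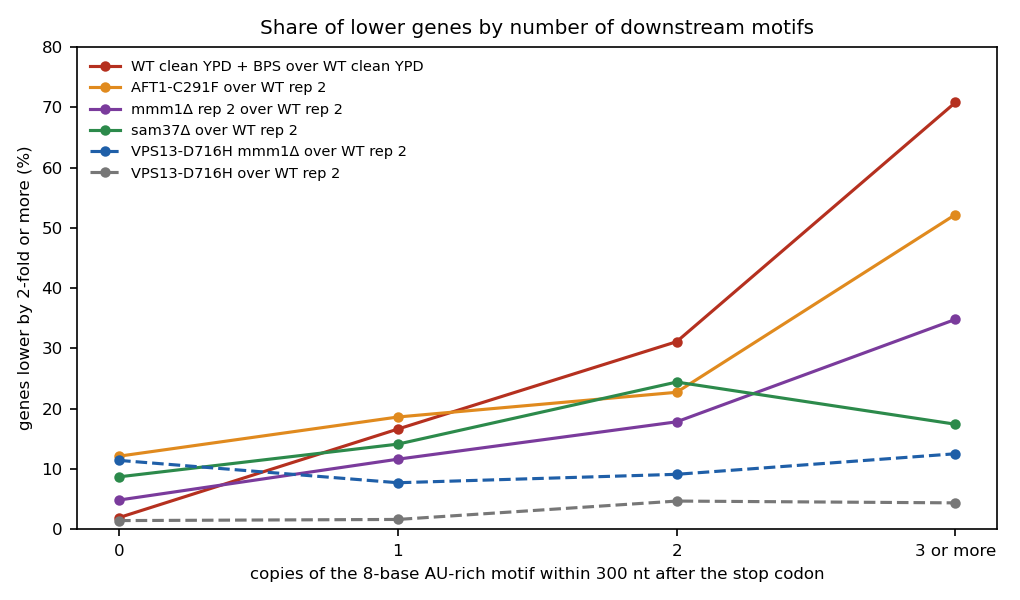
Percent of genes lower by 2-fold or more, by the number of copies of the 8-base AU-rich motif within 300 nt after the stop codon, in 6 comparisons of single libraries. With BPS the share runs from 1.91% with no copy to 70.8% with 3 or more; VPS13-D716H mmm1Δ and VPS13-D716H, drawn with broken lines, stay at or below 12.5%.

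CTH1, with 4 copies, thus belongs to the class with the largest share of lower genes with BPS, where its own ratio was -0.66, short of 2-fold, beside a median of -1.46 for the 24 genes of that class. TIS11 itself carries 1 copy and was among the genes with the highest ratios. By position, the motif started 15 to 293 nt after the stop codon over the 20 targets that have it.

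**Figure D5:**
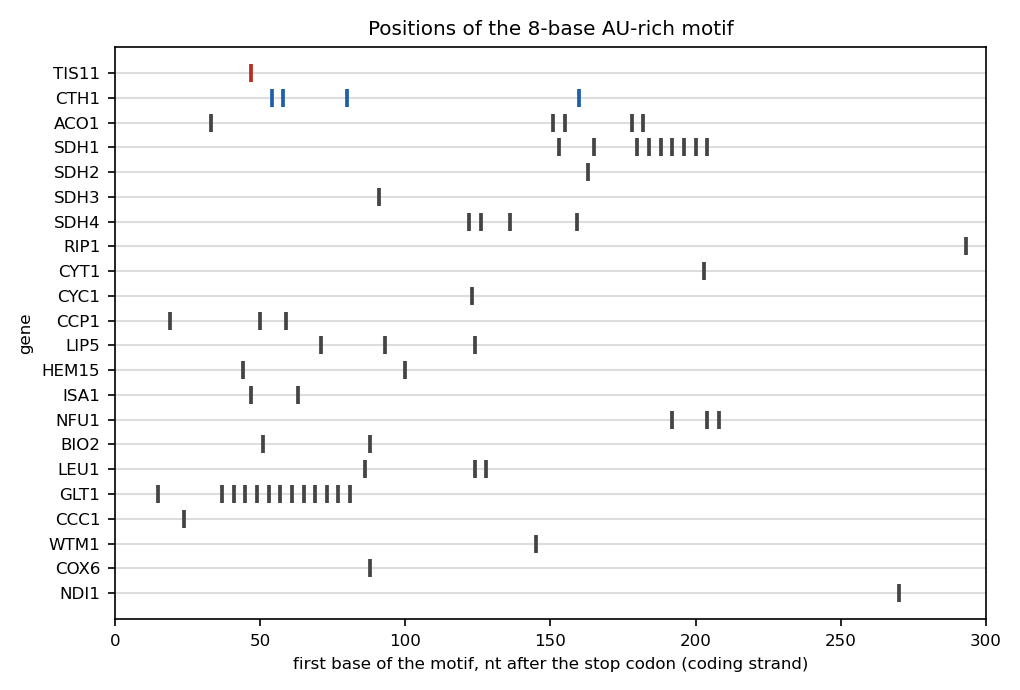
Start of each copy of the 8-base AU-rich motif after the stop codon (nt, coding strand) in TIS11 (top), CTH1 and the 20 listed targets that have one. CTH1 has 4 copies, GLT1 has 13 and SDH1 has 9, while TIS11 has 1 at 47 nt.

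The decay machinery that Tis11 hands its targets to was followed through 41 genes for deadenylation, decapping, 5′ to 3′ decay and the exosome. In mmm1Δ none rose or fell in limma (2.74% of all genes rose and 1.01% fell). At an unadjusted p under 0.05 in limma, 0 were higher and 2 lower. Of 5508 coding genes, 559 were higher and 425 lower at that p. With BPS none of the 41 was higher or lower by 2-fold (3.18% of all genes higher and 3.91% lower). The counts of limma calls and with BPS are near the shares of all genes. In AFT1-C291F 11 of 41 were higher and 2 lower (15.6% of all genes higher and 14.2% lower). The lower ones were LSM3 (-1.54) and LSM6 (-1.02) of the Lsm ring, and the highest were CDC39 (1.91), the scaffold of the Ccr4-Not deadenylase, XRN1 (1.81), the 5′ to 3′ exonuclease, and SKI2 (1.66), an exosome helicase. Genes outside the list were also higher in AFT1-C291F, such as NUM1 (29.6 FPKM) and VPS13 (13.7 FPKM). They were at 6.46 and 4.92 FPKM in WT replicate 2. DHH1, the decapping activator known to work with Tis11, stood at -0.45 and -1.03 in mmm1Δ, 1.48 in AFT1-C291F and -0.20 with BPS. In VPS13-D716H mmm1Δ 5 of 41 were lower, a share near that of all genes (11.6% lower). They were all the listed genes for exosome subunits: RRP4 (-2.11), RRP6 (-1.84), DIS3 (-1.52), CSL4 (-1.17) and RRP40 (-1.08). This grouping was seen in the values and was not tested. DCS1, the scavenger decapping enzyme, was higher there at 1.52.

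Other RNA-binding regulators of decay (14 genes) had none that rose or fell in mmm1Δ in limma, where 13 passed the filter. Over all genes 2.74% rose and 1.01% fell. At an unadjusted p under 0.05 in limma, 0 of the 13 were higher and 1 lower. That is near the shares of 5508 coding genes, of which 559 were higher and 425 lower. None of the 14 was past 2-fold with BPS (3.18% of all genes higher and 3.91% lower). The counts of limma calls and with BPS are again near the shares of all genes. In AFT1-C291F 7 of 14 were higher (15.6% of all genes higher), led by the Pumilio family genes PUF3 (2.23) and PUF4 (1.98). In VPS13-D716H mmm1Δ, 2 of 13, PUF6 (-2.46) and VTS1 (-2.33), were lower, a share near that of all genes (11.6% lower). Of 7 iron sensing regulators, none rose or fell in limma in mmm1Δ (2.74% of all genes rose and 1.01% fell). At an unadjusted p under 0.05 in limma, 3 of the 7 were higher and 1 lower. At that p, 559 of 5508 coding genes were higher and 425 lower. AFT1 stood at 1.28 and 0.76 in mmm1Δ, 2.38 in AFT1-C291F and 1.14 with BPS. GRX4, a glutaredoxin that holds Aft1 back when iron is plentiful, stood at -1.56 and -1.17 in mmm1Δ, -1.16 in sam37Δ and -2.10 with BPS, and at 0.31 in AFT1-C291F. Other listed regulators did not all follow GRX4. GRX3 stood at -0.06 and -0.50 in mmm1Δ, 0.015 in sam37Δ and 0.07 with BPS. BOL2 stood at -1.479 and -0.585 in mmm1Δ and 0.17 with BPS. FRA1 stood at 1.075 and 0.044 in mmm1Δ and 0.01 with BPS.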

How the data were processed

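Messenger RNA was sequenced from 12 libraries. The authors deposited FPKM values, per the file headers, with 1 table for each of 3 sets of libraries. The submitters' processing notes name build sacCer3, Cuffdiff 2.0.2 and TopHat2 2.0.8 with no roles. Per the labels' protocols the kit was TruSeq or KAPA stranded. Strand use in counting is not given in the sources used here. WT replicate 2 was placed by its column, since its label names another table.

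Ratios are log2((FPKM + 1)/(FPKM + 1)) within a table, for genes averaging 5 FPKM or more in the libraries compared. Single libraries have no p. For mmm1Δ over WT, limma 3.58.1 in R 4.3.3 was fitted with trend on, two-sided, at an adjusted p under 0.05, with the table, which is also the replicate number in the labels, as block. Same-numbered libraries deviated together, with a correlation of 0.62 across genes. The fit was tried on simulated data with even noise, the same change in both pairs and no filter on low values. Those settings are simpler than these data, so that trial gives no error rate for the calls here. On these data the fit has 1 residual and 7.59 prior degrees of freedom, and called 165 genes risen and 61 fallen. Only its calls are written as rose or fell. Replicates may be technical, so p-values measure only the spread between these libraries.

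Likeness used genes averaging 5 FPKM or more in each table, at least 300 nt long and alone at their locus. Named were the pair, the 6 genes most and least like TIS11, the 6 most like CTH1, up to 4 members at each end of each list per comparison, the altered genes and the neighbours. Further members were named after their values were seen. IDs of 5985 coding genes matched the RefSeq annotation of R64, the build sacCer3, and 5365 had the same ends. Sequences are from that assembly. The members and lists were chosen with earlier results of these data known. Alternatives were other pseudocounts, filters, scalings, controls and windows.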

Additional observations from a re-analysis of the deposited data

Results flagged for a closer look

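Ratios of the same change in different backgrounds differed in sign in 5 cases, each between single libraries, so none of the differences was tested. Of the ratios given here only that of -2.78 was past 2-fold, and some lay close to 0. For TIS11, VPS13-D716H gave -2.78 in mmm1Δ and -0.32 in sam37Δ, against 0.43 in WT. For CTH1, VPS13-D716H gave 0.85 in mmm1Δ and 0.0292 in sam37Δ, against -0.11 in WT. For CTH1, mmm1Δ gave 0.23 where VPS13-D716H was present, against -0.12 and -0.74 where it was not. No group has 4 or more libraries, so no search for a library far from the others in its group was possible.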

How the results depend on the processing

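With no replicate block, TIS11 in mmm1Δ kept its ratio of 4.197 but lost its call in limma (adjusted p = 0.158), and 23 genes rose and 2 fell. With no filter on low values the ratio was again 4.197 (adjusted p = 0.0906, limma), with 20 and 3 calls. The call held under the other 6 settings of the fit. Leaving out a replicate gave 3.59 to 4.81 for TIS11 and -0.74 to -0.12 for CTH1, as values with no test. CTH1 passed under none of 8 alternatives and turned to 0.145 (adjusted p = 0.909, limma) when rescaled without ribosomal protein genes. Over all genes, 248 rose and 124 fell with a pseudocount of 0.1, 26 fell with 5, 175 fell with a minimum mean FPKM of 20, 259 rose and 97 fell after the rescaling, and 364 rose and 179 fell among longer genes alone at their locus. The rescaling moved TIS11 to 5.22 and CTH1 to 1.278 in mdm34Δ, and CTH1 to 0.439 in mdm34Δ over mmm1Δ replicate 1.

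With the WT library of the other table as control, centred, TIS11 stood at 5.667 in mdm34Δ, 3.314 in AFT1-C291F, 2.645 in sam37Δ, 2.338 in VPS13-D716H sam37Δ, 0.093 in VPS13-D716H mmm1Δ and -1.63 in VPS13-D716H. CTH1 then stood at -1.129 in mdm34Δ, -0.241 in AFT1-C291F, 0.33 in sam37Δ, 0.369 in VPS13-D716H sam37Δ, 1.079 in VPS13-D716H mmm1Δ and 0.72 in VPS13-D716H. This crosses tables with different scales, and the cause of these shifts was not tested. Of the 6 genes most like TIS11, 3 stayed by Spearman rank and 4 without the first table. Removing the trend with abundance and splitting genes by copies were chosen after seeing the data. FPKM gives no depth, so low levels have no error of their own.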
